A study of Mus musculus with 4 samples.

Results

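The genes described here encode the neuronal intermediate filaments (Nefl, Nefm, Nefh, Ina and Prph) and a set of neuronal microtubule and general neuron proteins (Map2, Mapt, Tubb3, Stmn2 and Uchl1). They were chosen by symbol, 10 of the 24411 genes in a table of gene counts, and all 10 passed the filter on low counts that left 15359 genes for testing. The mice were 7 days old (P7), homozygous (2 pools) or heterozygous (2 pools) for an Otof knockout, and RNA was taken from cochlear tissue. Otof encodes otoferlin, on whose calcium sensing the synaptic transmission between inner hair cells and spiral ganglion neurons depends. Each pool held both cochleas of 2 to 3 pups, so a library averages several animals, and both genotypes carried the knockout allele, with no wild-type group here. The series title asks how inner hair cells act on developing spiral ganglion neurons, and the comparison below asks how the neuronal cytoskeleton genes differed between the genotypes.

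Neurofilaments are heteropolymers of a light, a medium and a heavy subunit, and in mature axons their number sets the calibre of the axon. The medium and heavy subunits carry long phosphorylated tails, alpha-internexin (Ina) joins the filament in many neurons, and peripherin (Prph) is typical of peripheral neurons. In the cochlea, neurofilament antibodies outline the thick myelinated fibres of type I spiral ganglion neurons, and peripherin marks the thin fibres of type II neurons. The microtubule proteins Tubb3, Map2 and Mapt and the enzyme Uchl1 are used as markers of neurons in general, whatever the size of their axons.

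The libraries held 38090724 and 31509350 estimated counts in the homozygous pools and 36060278 and 32453536 in the heterozygous pools. Otof had 5 and 9 counts in the homozygous pools, against 86 and 83 in the heterozygous pools, which matched the labels. The pools differed in sex-linked RNA, with 2 and 19085 counts of Xist in homozygous replicates 1 and 2, against 5771 and 6733 in the heterozygous pools. For Ddx3y, of the Y chromosome, the counts were 3878 and 0 in homozygous replicates 1 and 2, against 2700 and 1872 in the heterozygous pools. The homozygous pools thus differed from each other in sex, and its part in the spread between pools was not tested. As a check of the tissue, all 26 pan-neuronal genes of a list passed the filter, while of 18 hair cell markers 9 passed it and 1 was at 0 in every library. Central glia markers were present, with a summed level of 2310 and 1009 counts per 1000000 counts (CPM) in homozygous replicates 1 and 2, against 2831 and 2707 CPM in the heterozygous pools. CPM relate a gene's counts to the scaled total of its library.

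The neurofilament genes were lower in both homozygous pools relative to the library as a whole. Nefl, the light subunit that every neurofilament needs, had 973 and 974 CPM in the homozygous pools, against 1429 and 1371 CPM in the heterozygous pools. The homozygous pools lay within 1 CPM of each other, and both were below both heterozygous pools. Nefm, the medium subunit, had 1523 and 1647 CPM in the homozygous pools, against 2264 and 2310 CPM in the heterozygous pools, again without overlap. The means of Nefl were 973.4 ± 0.555 CPM in homozygous and 1400.0 ± 40.7 CPM in heterozygous pools (SD, n = 2 each), a change of -30.5%, and that of Nefm was -30.7%. In bulk tissue such as this, fewer neurons and less RNA per neuron cannot be told apart.

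By edgeR's quasi-likelihood test the log2 fold change, homozygous over heterozygous, was -0.52 ± 0.10 (SE) for Nefl and -0.53 ± 0.11 for Nefm, at adjusted p of 0.172 and 0.2. By DESeq2, the tool the series names, the adjusted p was 1.46e-06 for Nefl and 4.25e-06 for Nefm. Below, rose and fell are used for an adjusted p under 0.05 by DESeq2, because edgeR called 0 of all 15359 genes (smallest adjusted p 0.101, with 2038 genes at an unadjusted p under 0.05). DESeq2 called 4 of the 10 genes lower and 0 higher, where 3.41% of all genes tested fell and 1.05% rose. Those that fell were Nefl, Nefm, Ina and Tubb3. By edgeR, 5 of the 10 had an unadjusted p under 0.05 (the same 4 and Nefh), all of them lower, beside 8.91% of all genes on that side and 13.3% on either side. For 6 of the 10 genes, 5 lower and 1 higher, both homozygous pools lay on the same side of both heterozygous pools, beside 24.5% and 21.6% of all genes.

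Nefh, the heavy subunit and the one most tied to large-calibre axons, had 915 and 639 CPM in homozygous replicates 1 and 2, against 1325 and 1076 CPM in heterozygous replicates 1 and 2. The genotypes did not overlap, but homozygous replicate 2 lay well below replicate 1. The mean was 777 ± 195 CPM in homozygous and 1200.4 ± 176 CPM in heterozygous pools (SD, n = 2 each), and the log2 fold change was -0.63 ± 0.21 (SE; 95% interval -1.18 to -0.07). It did not pass either test, with an adjusted p of 0.335 by edgeR and 0.0569 by DESeq2. Its size depended on which pool was left out. The edgeR log2 fold change was -0.90 without homozygous replicate 1 and -0.39 without homozygous replicate 2. Without heterozygous replicate 1 it was -0.47, and without heterozygous replicate 2 it was -0.77. The central glia markers were also lowest in homozygous replicate 2, and their part in the level of Nefh was not tested.

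Within a library, the subunits kept different proportions. The ratio of Ina to Nefl counts was 0.172 and 0.170 in the homozygous pools, against 0.168 and 0.175 in the heterozygous pools, and that of Nefm to Nefl was 1.57 and 1.69, against 1.58 and 1.68. These ratios overlapped between the genotypes. The ratio of Nefh to Nefl was 0.940 and 0.657 in homozygous replicates 1 and 2, against 0.927 and 0.785 in heterozygous replicates 1 and 2, so the heavy subunit varied more between pools than between genotypes. All 3 subunits together made up 0.346% and 0.332% of all counts in the homozygous pools, against 0.495% and 0.466% in the heterozygous pools.

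**Figure D1:**
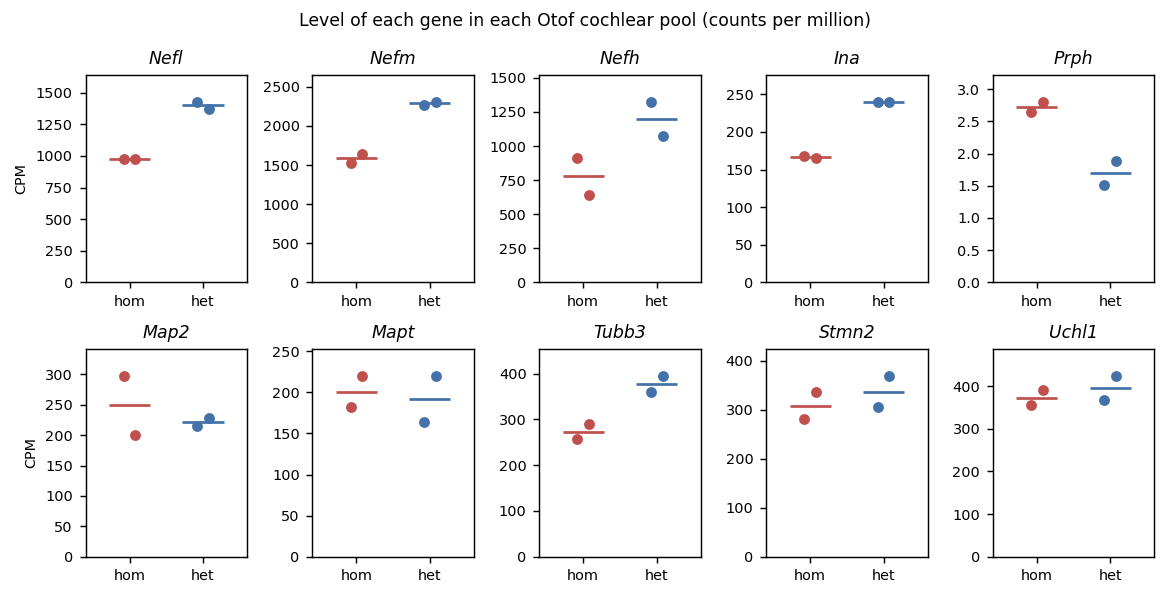
Level of each of the 10 genes in CPM (vertical axis, from 0) in homozygous (hom, red) and heterozygous (het, blue) pools, with 1 point per pool and a bar at the mean of 2. Nefl, Nefm, Nefh, Ina and Tubb3 lie lower in both homozygous pools, Prph lies higher, and Map2, Mapt, Stmn2 and Uchl1 overlap.

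Ina and Prph, the other neuronal filament genes, went in opposite directions. Ina, alpha-internexin, had 168 and 166 CPM in the homozygous pools, against 240.3 and 239.7 CPM in the heterozygous pools. Its replicates differed by under 2 CPM in each genotype, and it fell, with a log2 fold change of -0.53 ± 0.08 (SE) and an adjusted p of 0.125 by edgeR and 4.44e-06 by DESeq2. Prph, peripherin, was the least abundant of the 10 genes, with 102 and 90 counts in the homozygous pools, against 54 and 60 in the heterozygous pools. The exact 95% Poisson intervals, which cover counting error only, were 83.2 to 124 and 72.4 to 111 counts for the homozygous pools, against 40.6 to 70.5 and 45.8 to 77.2 for the heterozygous pools.

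In CPM, Prph was 2.64 and 2.80 in the homozygous pools, against 1.52 and 1.89 in the heterozygous pools, without overlap. Its log2 fold change was 0.68 ± 0.27 (SE; 95% interval -0.03 to 1.38), and it passed neither test, with an adjusted p of 0.394 by edgeR and 0.616 by DESeq2. Per 1000 counts of Nefl there were 2.71 and 2.88 counts of Prph in the homozygous pools, against 1.06 and 1.38 in the heterozygous pools. Among 9 other type II neuron markers that passed the filter, 8 had a fold change above 0 (median 0.53, beside 0.01 over all genes tested). Some of these markers were less abundant than Prph. Pools of the genotypes lay apart for 5 of the 9 on the higher and 1 on the lower side, beside 21.6% and 24.5% of all genes. Gata3, a transcription factor that cochlear neurons and other cochlear cells use, was the 1 that rose, at 59.7 ± 4.2 CPM in homozygous and 27.5 ± 6.5 CPM in heterozygous pools (SD, n = 2 each).

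Of the microtubule and general neuron genes, 1 of 5 fell. Tubb3, the neuronal class III beta-tubulin, had 258 and 289 CPM in the homozygous pools, against 360.1 and 395 CPM in the heterozygous pools, without overlap. Its log2 fold change of -0.47 ± 0.11 (SE) had an adjusted p of 0.213 by edgeR and 0.00397 by DESeq2. The size was close to that of Nefl, Nefm and Ina, although Tubb3 is a general neuron marker and no filament protein.

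The other 4 genes of this group overlapped between the genotypes. Map2, which binds microtubules mainly in dendrites and cell bodies, had 297 and 200.3 CPM in homozygous replicates 1 and 2, against 216 and 228 CPM in the heterozygous pools. Homozygous replicate 1 was the highest library and homozygous replicate 2 the lowest, so the fold change of 0.17 ± 0.20 (log2, SE; 95% interval -0.35 to 0.68) turned to -0.14 without replicate 1 and was 0.43 without replicate 2. Mapt, the axonal microtubule protein tau, had 182 and 219.9 CPM in the homozygous pools, against 163 and 219.7 CPM in the heterozygous pools. In both genotypes replicate 2 was the higher, and the fold change was 0.07 ± 0.18 (95% interval -0.39 to 0.53).

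Stmn2, a tubulin-binding stathmin of growing axons, had 281 and 336 CPM in the homozygous pools, against 305 and 369 CPM in the heterozygous pools. Uchl1, the ubiquitin hydrolase also called PGP9.5, had 357 and 391 CPM in the homozygous pools, against 367 and 424 CPM in the heterozygous pools. For each of them replicate 2 was the higher pool in both genotypes. The log2 fold changes were -0.13 ± 0.15 for Stmn2 (SE, 95% interval -0.50 to 0.25) and -0.08 ± 0.11 for Uchl1 (95% interval -0.38 to 0.21). The point estimate of Nefm, -0.53, lay below both intervals, but its own 95% interval of -0.82 to -0.24 overlapped both. The difference between these genes and Nefm was not tested. Uchl1 lies on chromosome 5, as does Otof, with 36.3 Mb between the midpoints of the genes.

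The libraries were then compared within themselves, with the 3 neurofilament subunits set against the 5 microtubule and general neuron genes. The mean log2 CPM of the subunits exceeded that of the other group by 2.04 and 1.86 in the homozygous pools, against 2.59 and 2.26 in the heterozygous pools. The genotypes did not overlap, and the difference of the means was -0.47 on the log2 scale. As summed CPM, the subunits had 2.48 and 2.27 times the level of the other group in the homozygous pools, against 3.56 and 2.91 times in the heterozygous pools. No test is given for this contrast, since with 2 pools against 2 the smallest exact two-sided p is 0.333, and Tubb3 moved with the filaments. With Ina and Prph counted as filaments the difference was -0.22, because Prph was higher in the homozygous pools.

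The median log2 fold change was -0.53 for the 3 subunits and -0.08 for the 5 microtubule and general neuron genes, beside 0.01 over all genes tested.

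**Figure D2:**
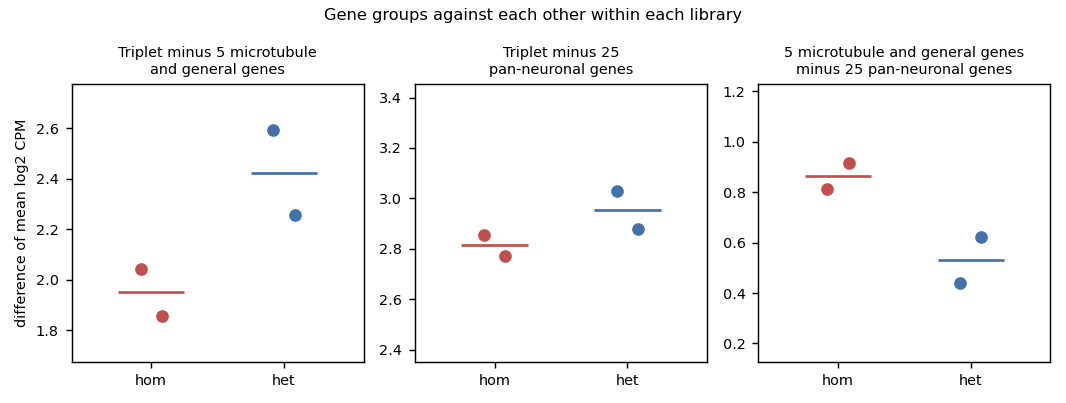
Differences of mean log2 CPM between gene groups (vertical axis, same span in each panel) in homozygous (hom, red) and heterozygous (het, blue) pools, with 1 point per pool and a bar at the mean. The neurofilament subunits against the 5 microtubule and general genes are at 2.04 and 1.86 in homozygous and 2.59 and 2.26 in heterozygous pools. Against 25 pan-neuronal genes the subunits differed less, and the 5 microtubule and general genes were higher in the homozygous pools. The median of all genes (not shown) was also higher there when libraries were scaled to those 25.

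How the filaments stood against neuronal transcripts in general was read from 26 pan-neuronal genes that hold none of the 10. Of these, 16 fell and 0 rose, with a median log2 fold change of -0.47. Fold changes were below 0 for 22 of the 26 and above it for 4, up to 0.15, so the list did not move as 1. With 1 library left out the number that fell was 12 (homozygous replicate 1), 9 (homozygous replicate 2), 6 (heterozygous replicate 1) or 4 (heterozygous replicate 2). Examples of those that fell are Chgb, a secretory granule protein, at -0.69 ± 0.08 (log2, SE), Eno2, the neuronal enolase, at -0.77 ± 0.10, and Thy1, a surface protein of neurons, at -0.75 ± 0.09. One list member, Scg2, had 57.5 CPM in heterozygous replicate 2, against 7.06 in heterozygous replicate 1, and 2.17 and 0.685 CPM in the homozygous pools.

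Against 25 of these genes, without Scg2, the mean log2 CPM of the subunits was higher by 2.86 and 2.77 in the homozygous pools, against 3.03 and 2.88 in the heterozygous pools. The difference between the genotypes was -0.14 on the log2 scale without overlap, while with Scg2 among the 26 genes the pools overlapped (3.09 and 3.07 in the homozygous pools, against 3.22 and 2.95 in the heterozygous pools). That of the 5 microtubule and general neuron genes was 0.33, with 0.81 and 0.92 in the homozygous pools, against 0.44 and 0.62 in the heterozygous pools. Relative to the pan-neuronal genes, the subunits thus differed little between the genotypes, and the microtubule and general neuron genes as a group were higher in the homozygous pools. This was not particular to the group. With libraries scaled to the 25 genes, the median log2 fold change of all genes was 0.43 in edgeR. Tubb3, 1 of the 5, was at -0.04 ± 0.11 (SE) on that scaling.

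Scaling the libraries to the 26 pan-neuronal genes moved the median log2 fold change of all genes to 0.57, against 0.01 with the usual scaling, and to 0.43 without Scg2. On the 26 genes, the edgeR fold change was 0.04 ± 0.16 (log2, SE) for Nefl, 0.04 ± 0.16 for Nefm, 0.04 ± 0.14 for Ina and 0.105 ± 0.155 for Tubb3, all with the sign turned, and -0.08 ± 0.20 for Nefh. Without Scg2, which was left out after its values were seen, these were -0.10 ± 0.10, -0.10 ± 0.11, -0.10 ± 0.08, -0.04 ± 0.11 and -0.21 ± 0.20, and none of the 5 passed the edgeR threshold on either scaling. Map2, at 0.72 ± 0.17, and Mapt, at 0.65 ± 0.17, were past edgeR's threshold on the 26 genes, as were Stmn2, Uchl1 and Prph. On that scaling 60.1% of all genes were called higher by edgeR and 60.6% by DESeq2, which called the same 5, so the calls say little about these 5 in particular. Without Scg2 only Prph passed edgeR (1.10 ± 0.27, adjusted p 0.0309), where 45.7% of all genes were called higher, and DESeq2 called Prph, Map2, Mapt and Uchl1, where 52.8% were.

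**Figure D3:**
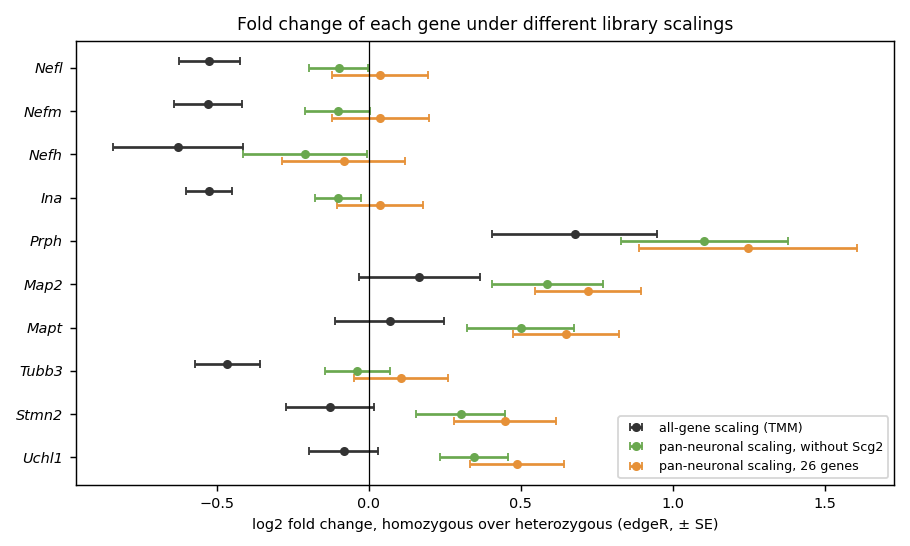
Log2 fold change (edgeR, homozygous over heterozygous, horizontal axis, with its SE) of each gene under the usual scaling over all genes (TMM, black) and when libraries are scaled to the pan-neuronal genes without Scg2 (green) or to all 26 of them (orange). Nefl, Nefm, Nefh, Ina and Tubb3 lie near 0 on the pan-neuronal scalings, and the other 5 genes lie above 0.

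Levels between genes were compared per kilobase of merged exons. In the homozygous pools the order of CPM per kilobase was Nefl (288 ± 0.164), Nefm (274 ± 15.1), Uchl1 (229 ± 14.7), Nefh (194 ± 48.7) and Tubb3 (146 ± 11.7), as means with SD over 2 pools. In the heterozygous pools it was Nefl (414 ± 12.1), Nefm (396 ± 5.59), Nefh (301 ± 44.1), Uchl1 (243 ± 24.5) and Tubb3 (202 ± 13.2). Uchl1 and Nefh changed places, but they lay within the spread of Nefh in the homozygous pools, and the gap between Nefl and Nefm there was within the SD of Nefm.

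Lower in the order, in CPM per kilobase, were Stmn2 (55.1 ± 6.9 in homozygous and 60.2 ± 8.11 in heterozygous pools) and Ina (51.4 ± 0.42 in homozygous and 74.1 ± 0.127 in heterozygous pools). Mapt had 26.7 ± 3.56 CPM per kilobase in homozygous and 25.4 ± 5.28 in heterozygous pools, Map2 had 15.1 ± 4.17 in homozygous and 13.5 ± 0.523 in heterozygous pools, and Prph had 1.36 ± 0.0587 in homozygous and 0.852 ± 0.131 in heterozygous pools. Merged exons overstate the length of a gene with many transcript forms, and Map2, at 16449 bases, is the longest of the 10. Nefl and Nefm lie side by side on chromosome 14 on opposite strands (68083863 to 68089095 and 68082590 to 68124846, GRCm38), and the annotated span of Nefm reaches over Nefl. The estimated counts of Nefl were whole numbers in 4 of 4 libraries and those of Nefm in 0, and how reads in the shared span were assigned was not tested.

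Nefh and Mapt lie on chromosome 11 (4938754 to 4948064 and 104231390 to 104332090), Ina on chromosome 19 (47014698 to 47025327) and Prph on chromosome 15 (99055174 to 99058978). Map2 lies on chromosome 1 (66175273 to 66442583), Tubb3 on chromosome 8 (123411424 to 123422015), Stmn2 on chromosome 3 (8509360 to 8561606) and Uchl1 on chromosome 5 (66676091 to 66687234). Ina shares its 5′ end with Nt5c2 and Uchl1 with the antisense transcript Uchl1os.

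The promoters of Ina and Tubb3, which fell, of Prph, which was higher without passing, and of Uchl1, which overlapped, are shown as the 250 bases before the annotated start (RefSeq, GRCm38.p6, plus strand, 5′ to 3′). Capitals mark 3 motifs, none overlapping another, searched on both strands. The TATA box was searched as TATAAA. The second motif was CCAAT. The GC box was searched as GGGCGG. The windows are chr19:47014431-47014680 for Ina, chr8:123411303-123411552 for Tubb3, chr15:99054924-99055173 for Prph and chr5:66675871-66676120 for Uchl1. Gene positions given above come from another annotation, GENCODE. By it Tubb3 starts at 123411424 and Uchl1 at 66676091, so part of each of these windows lies inside the gene. The same holds for the window of Map2, described below.
Ina: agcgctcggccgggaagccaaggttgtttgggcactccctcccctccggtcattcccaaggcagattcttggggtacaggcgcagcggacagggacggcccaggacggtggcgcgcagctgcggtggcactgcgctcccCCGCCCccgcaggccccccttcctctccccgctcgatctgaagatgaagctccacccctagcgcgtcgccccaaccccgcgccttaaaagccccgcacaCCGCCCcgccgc
Tubb3: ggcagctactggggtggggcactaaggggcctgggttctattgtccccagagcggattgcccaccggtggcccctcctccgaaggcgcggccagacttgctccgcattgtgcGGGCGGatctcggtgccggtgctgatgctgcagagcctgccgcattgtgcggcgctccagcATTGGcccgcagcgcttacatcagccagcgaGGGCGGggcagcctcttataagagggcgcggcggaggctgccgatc
Prph: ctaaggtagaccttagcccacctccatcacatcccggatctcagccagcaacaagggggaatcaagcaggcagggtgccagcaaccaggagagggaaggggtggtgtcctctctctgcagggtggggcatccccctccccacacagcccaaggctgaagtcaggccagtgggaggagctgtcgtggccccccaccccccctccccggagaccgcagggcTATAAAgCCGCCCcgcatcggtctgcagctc
Uchl1: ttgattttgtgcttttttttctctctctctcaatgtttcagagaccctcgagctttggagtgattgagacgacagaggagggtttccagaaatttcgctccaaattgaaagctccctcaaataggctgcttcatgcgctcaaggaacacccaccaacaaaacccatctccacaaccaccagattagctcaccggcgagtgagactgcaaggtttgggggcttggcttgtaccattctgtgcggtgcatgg
Ina and Tubb3 each held 2 GC boxes and had a GC content of 70.8% and 68%, beside a median of 52.4% over all 32851 promoter windows, and Tubb3 also held 1 CCAAT. Prph held a TATA box and 1 GC box at a GC content of 65.2%, and Uchl1 held none of the 3 motifs at 48.8%. The window of Map2, whose levels also overlapped and whose sequence is not shown, held 5 GC boxes at a GC content of 81.2%, so neither measure separated the genes that fell from those that overlapped. Over all windows of this length 12.4% held TATAAA, 33.8% CCAAT and 32.7% GGGCGG. These matches describe the letters only.

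With each library left out in turn, Nefl, Nefm, Ina and Tubb3 kept a fold change below 0 in edgeR and Prph one above 0. Their edgeR log2 fold changes ranged from -0.55 to -0.49 for Nefl, -0.58 to -0.46 for Nefm, -0.53 to -0.51 for Ina, -0.54 to -0.38 for Tubb3 and 0.53 to 0.84 for Prph. The calls were less stable than the sizes. DESeq2 called 4 of the 10 lower without homozygous replicate 1 (Nefl, Nefm, Nefh and Ina) and 4 without homozygous replicate 2 (Nefl, Nefm, Ina and Tubb3), when 3.97% and 1.57% of all genes were called lower. It called 0 of the 10 genes without heterozygous replicate 1 and 0 without heterozygous replicate 2, when 0.833% and 0.783% of all genes were called lower.

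**Figure D4:**
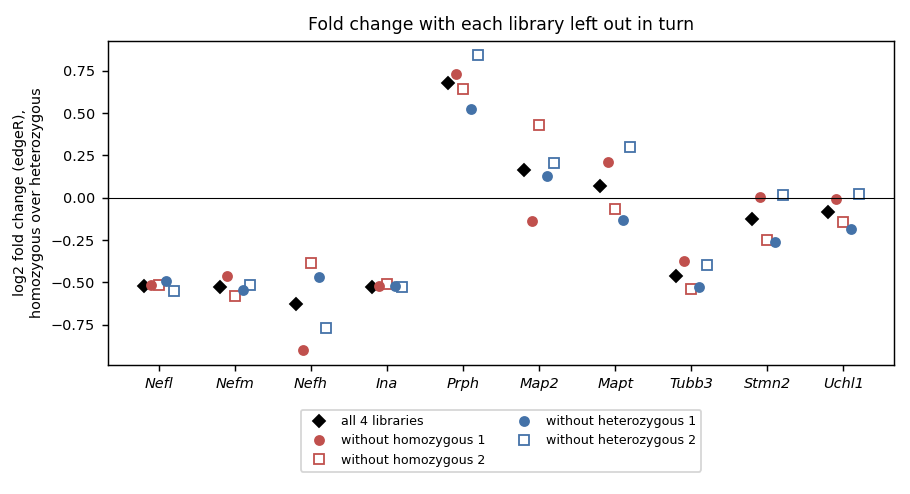
Log2 fold change of each gene (edgeR, homozygous over heterozygous, vertical axis) with all 4 libraries (black) and with 1 homozygous (red) or heterozygous (blue) library left out (filled for replicate 1, open for replicate 2). Nefl and Ina hardly move, Nefh ranges from -0.90 to -0.39, and Map2, Mapt, Stmn2 and Uchl1 lie on both sides of 0.

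Of 13 other tubulins 0 passed, with 8 fold changes below 0 and 5 above it and a median log2 fold change of -0.09. Tuba1a, the main alpha-tubulin of young neurons, was at -0.27 ± 0.12 (SE). Tubb4a, a beta-tubulin of neurons and oligodendrocytes, had 391 and 216 CPM in homozygous replicates 1 and 2, against 468 and 477 CPM in the heterozygous pools, and so was low in homozygous replicate 2 like the central glia markers. Of 23 other microtubule-associated proteins 3 fell and 0 rose (median -0.13). Map1a, which binds microtubules of mature neurons, had 822 and 591 CPM in the homozygous pools, against 1197 and 985 CPM in the heterozygous pools, and Map6, which stabilises microtubules, was at -0.62 ± 0.10. That number was 7 and 1 when homozygous replicate 1 or 2 was left out, and 0 when either heterozygous pool was.

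Among the other stathmins Stmn3 fell (-0.40 ± 0.10), a call kept without homozygous replicate 2 and lost without any other pool, and Stmn1 and Stmn4 did not pass. Of 18 axonal transport motors, 3 fell and 0 rose, with a median of -0.24 and 15 of 18 fold changes below 0. They were the kinesin heavy chains Kif5a (-0.31 ± 0.09) and Kif5c (-0.35 ± 0.09) and the kinesin light chain Klc2 (-0.48 ± 0.08), and the number was 3 without homozygous replicate 1 and 0 without any 1 of the other pools. Kif5a carries neurofilaments along axons. Of 12 genes of the axonal membrane skeleton 1 fell, the spectrin gene Sptb (-1.02 ± 0.23). That number was 3 without homozygous replicate 1, 0 without homozygous replicate 2, 0 without heterozygous replicate 1 and 1 without heterozygous replicate 2. Of 13 kinases, turnover factors and linker proteins tied to neurofilaments 3 fell, led by Mapk8ip1, a scaffold for kinases and kinesin, at -0.59 ± 0.09 (median of the list -0.25). With 1 pool left out the number was 2 (homozygous replicate 1), 1 (homozygous replicate 2) or 0 (either heterozygous pool).

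Of 16 growth cone and axon growth genes tested 0 passed, and 12 had a fold change above 0 (median 0.11). Pools of the genotypes lay apart for 3 of the 16 on the higher and 3 on the lower side, beside 21.6% and 24.5% of all genes. Gap43, the growth-associated protein, had 40.6 and 78.1 CPM in homozygous replicates 1 and 2, against 28.7 and 53.1 CPM in heterozygous replicates 1 and 2, so replicate 2 was the higher in both genotypes and the pools overlapped. Of 16 genes of microtubule severing and tubulin modification and of 3 relatives of Uchl1, 0 passed.

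**Figure D5:**
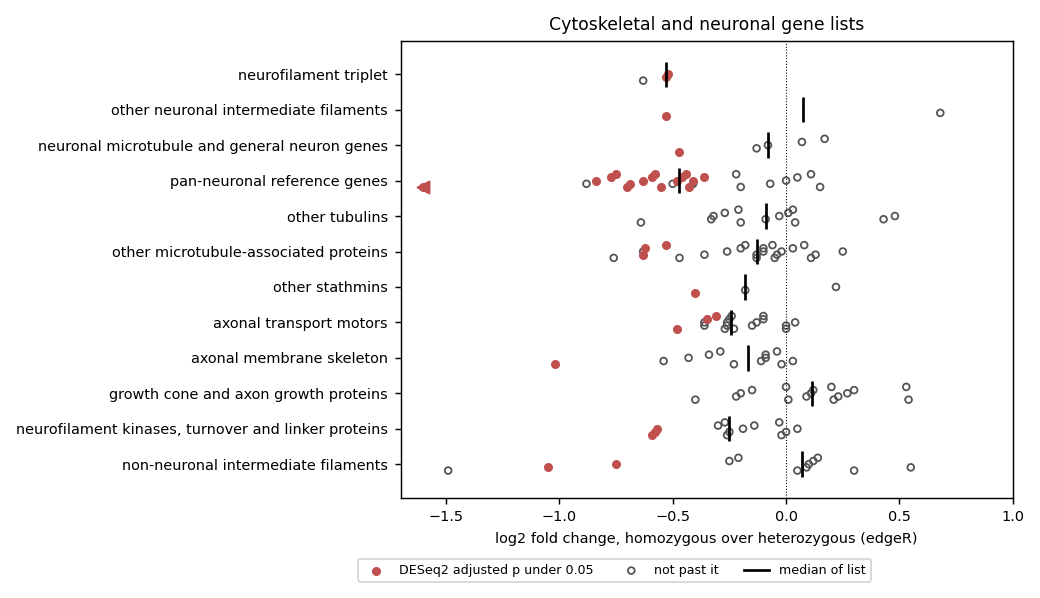
Log2 fold change (edgeR, homozygous over heterozygous, horizontal axis) of the genes in 12 lists, filled red where DESeq2's adjusted p was under 0.05, with a black bar at each list's median. The arrow marks Scg2, at -4.46. The pan-neuronal genes and the neurofilament subunits lie furthest below 0, and the growth cone genes lie around 0.

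Of 12 intermediate filament genes of other cells tested, 2 fell (1 without heterozygous replicate 1), Nes (nestin) at -0.75 ± 0.13 and Synm (synemin) at -1.05 ± 0.11 (log2, SE). Vim (vimentin), the main filament of connective tissue and glia, was at 0.12 ± 0.11. Gfap, of astrocytes and some Schwann and cochlear cells, had 524 and 159 CPM in homozygous replicates 1 and 2, against 482 and 305 CPM in the heterozygous pools.

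Markers of other cells moved beside the neuronal genes, and their part in these results was not tested. Schwann and myelin genes, which enwrap type I fibres, fell in 13 of 25 cases (15 and 12 without homozygous replicates 1 and 2, 8 and 9 without heterozygous replicates 1 and 2) and rose in 0, with a summed level of 31034 and 26043 CPM in the homozygous pools, against 48662 and 50704 CPM in the heterozygous pools. Fibroblast and connective tissue markers rose in 5 of 13 cases (5 and 2 without homozygous replicates 1 and 2, 4 and 1 without heterozygous replicates 1 and 2) and fell in 0, with sums of 11763 and 12775 CPM in the homozygous pools, against 9257 and 8094 CPM in the heterozygous pools. Central glia markers fell in 3 of 14 cases, in 10 without homozygous replicate 1 and 4 without homozygous replicate 2, and in 1 and 0 without heterozygous replicates 1 and 2. Of 12 type I spiral ganglion neuron markers 4 fell and 0 rose (3 and 5 fell without homozygous replicates 1 and 2, and 1 without either heterozygous pool), among them Slc17a7 and Slc17a6, the vesicular glutamate transporters, at -0.84 ± 0.17 and -1.55 ± 0.16 (log2, SE). Skeletal muscle markers fell in 2 of 7 cases (2 without either homozygous pool, 0 without heterozygous replicate 1 and 3 without heterozygous replicate 2), at summed levels of 10.6 and 7.70 CPM in the homozygous pools, against 30.7 and 18.5 CPM in the heterozygous pools.

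By a distance over the 4 libraries (Euclidean, on log2 CPM centred on each gene's mean), the 5 genes of at least 10 CPM with a pattern most like the mean of the 3 subunits were Iqsec1, Krt222, Eif5a2, Aif1l and Ahcyl2, among 10817 candidates. Their distances lay between 0.016 and 0.061. Iqsec1 had 91.7 and 82.8 CPM in the homozygous pools, against 135 and 124 CPM in the heterozygous pools. On the same measure Ina stood at 0.12 and Tubb3 at 0.29, and Uchl1, Stmn2, Map2 and Mapt between 0.57 and 0.80. With 4 libraries many genes share such a pattern.

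In the authors' deposited table of 343 genes, which holds genes with an adjusted p up to 0.00982 and an absolute log2 fold change of at least 0.50, 3 of the 10 genes were listed. The log2 fold changes in the authors' deposited table were -0.52 for Nefm, -0.52 for Ina and -0.52 for Nefl. The table's name speaks of removed outliers without saying which. The deposited values, with SE of 0.098, 0.097 and 0.094, nearly equal those of DESeq2 on all 4 libraries and all genes with a count. That fit gave -0.521 ± 0.098 for Nefm, -0.519 ± 0.097 for Ina and -0.517 ± 0.094 for Nefl (log2, SE). Coming from the same libraries, the deposited values are not independent evidence.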

How the data were processed

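Per the labels' protocols, messenger RNA was selected on poly-T beads, fragmented and copied from random primers. Strand use in library preparation and counting: not given in the sources used here. The authors deposited estimated counts per gene symbol, made with Salmon on mm10 per the submitters' processing notes. Tool versions and annotation: not given in the sources used here. The authors' deposited DESeq2 table gives log2 fold changes with their standard errors, a Wald score, p-values and a mean normalised signal, per the file headers.

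Counts were rounded and tested with edgeR 4.0.16 (TMM, filterByExpr, quasi-likelihood F test, genotype only, R 4.3.3) and DESeq2 1.42.0, with Benjamini-Hochberg adjustment over all genes tested; both were tested on simulated data. CPM are counts per 1000000 on TMM-scaled sizes. Intervals use edgeR's SE and degrees of freedom. Nothing says that replicates shared a litter or a day. Positions and exon lengths are from GENCODE M21 (GRCm38), promoters from RefSeq.

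The genes, lists and tests were chosen with earlier results of these data known. Named genes are the 10 genes, Otof, and up to 4 called genes per list by smallest p (2 by edgeR's p where none was called), and the 5 genes with the pattern most like the neurofilament subunits. Examples beyond that rule (Stmn1, Stmn4, Vim, Gfap, Gap43, Tubb4a, Scg2, Xist, Ddx3y) were chosen after their values were seen. Alternatives were other scalings, filters, DESeq2, a replicate block and leaving out each library.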

Additional observations from a re-analysis of the deposited data

How the results depend on the processing

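Under RLE and upper-quartile size factors, no filter on low counts and a stricter one (1 CPM in 2 libraries), edgeR called 0 of the 10 genes, and all 10 fold changes kept their sign. DESeq2 called 4, and also 4 when given all genes with a count, which was chosen after the data were seen. With 1 library left out, edgeR called 0 in each case and DESeq2 from 0 to 4. The labels do not pair the pools by replicate number. Over all genes the deviations of same-numbered pools correlated at 0.287. With 2 pools per genotype the crossed pools give -0.287 by construction, so this value does not show that the pools were paired. A replicate block gave 1 called gene of the 10 in edgeR and 5 in DESeq2. The gene called by edgeR was Ina, and the one DESeq2 gained was Nefh (-0.636 on the log2 scale, adjusted p 1.12e-05). Over all genes edgeR called 495 with the block and 0 without it.

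Scaling to the pan-neuronal genes gave 5 called genes in edgeR and 5 in DESeq2, all of them higher, and 1 and 4 without Scg2. The median log2 fold change of the 3 subunits was then 0.037 in both tools (-0.103 without Scg2), and that of the microtubule and general neuron genes 0.488 (0.344 without Scg2), since nearly all genes shift up on this scaling. Single fold changes that turned sign in both tools were Nefl and Nefm (0.037), Ina (0.036), Tubb3 (0.105), Stmn2 (0.448) and Uchl1 (0.488) on the 26 genes, and Stmn2 (0.302) and Uchl1 (0.344) without Scg2. With 1 library left out the sign turned for Map2, Mapt, Stmn2 and Uchl1, none of which passed with all libraries. The edgeR ranges were -0.136 to 0.431, -0.129 to 0.297, -0.259 to 0.017 and -0.183 to 0.024, and the DESeq2 ranges -0.149 to 0.433, -0.123 to 0.292, -0.252 to 0.012 and -0.176 to 0.019. Mapt was at -0.065 in edgeR and -0.063 in DESeq2 without homozygous replicate 2. These fits take the spread from the genotype that keeps both pools and apply it to the single remaining one. The median of the subunits ranged from -0.558 to -0.487 with a library left out, that of the microtubule and general neuron genes from -0.183 to 0.024, and the difference between the groups from -0.642 to -0.307. That difference was -0.217 with Ina and Prph added. Each genotype rests on 2 pools, and Prph on 54 to 102 counts a library, which limit what these tests can show.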
